A study of Mus musculus with 24 samples.

Results

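The lysosomal hydrolases and membrane proteins are 47 genes taken by symbol from the 45792 genes listed: hydrolases, their cofactors, lysosomal membrane proteins and channels, V-ATPase subunits and the transcription factor Tfeb, without the cathepsins. All 47 had a value other than 0 and all 47 were among the 14227 genes tested, whose mean log2 value over the libraries reached 4. Expression was measured by RNA sequencing in liver cells of female C57BL/6 mice, sorted as CD11c+ MHC class II+. All mice ate a methionine- and choline-deficient diet, which leads to steatohepatitis, for 2 weeks, and all received DiI-labelled liposomes into a vein 24 hours before the sort. DiI is a fluorescent membrane dye, so DiI-positive cells are those that held liposome label. The liposomes were either empty or carried curcumin, a plant polyphenol, and each of the 2 gates was sequenced after each, which made 4 groups of 3 libraries. No group without liposomes and none on a normal diet is among these libraries. Whether a library is 1 mouse or a pool is not given in the labels, so the p-values reflect only how far the libraries of a group lie apart, which may be technical.

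The lysosome is the acidic compartment in which material taken up by endocytosis or phagocytosis is broken down. The V-ATPase pumps protons into it, soluble hydrolases digest glycans, lipids and proteins, and a coat of glycosylated membrane proteins lines and protects the inner face of its membrane. In macrophages and dendritic cells the same compartment also prepares antigen for MHC class II. TFEB is a transcription factor that binds E-boxes (the letters CACGTG, with preferred flanks) in the promoters of many lysosomal genes, a motif known as the CLEAR element.

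The E-box was therefore looked up in the promoter windows of the members, which run from 250 bases before to 50 bases after each start site (RefSeq, GRCm38.p6). Of the 47 members, 41 had such a window. For 31 of the 41, the last bases of a window matched the early part of an annotated transcript of the gene. For the rest they did not. Such a match bears on the direction of a window and does not place its start site. Positions in all windows therefore rest on the RefSeq start sites alone. The letters CACGTG, which read the same on both strands, were found in 12 of these 41 (29.3%), against 8.09% of all 27025 genes with a window. Counted by window, the share was 25.0% of the 48 windows of members and 7.15% of all 32851 windows. All 12 genes also held the longer TCACGTG on at least 1 of the strands, which 4.29% of all genes held. The palindrome TCACGTGA, which contains both shorter forms, was found in 5 members (Cln3, Mcoln1, Atp6v0d1, Atp6v1a and Gla) and in 1.12% of all genes. The sequences below run from 150 bases before to 10 bases after the start site, 5′ to 3′ in the direction of transcription, with each E-box in capitals. Lamp1, Cln3 and Mcoln1 are shown because they carry more than 1 E-box here. Gaa, Naglu and Lgmn are shown because, with Mcoln1, they were the members with an E-box that were higher in DiI-positive cells. Tpp1 and Gm2a, which are among the 3 members with the smallest p in the comparison of gates averaged over the liposomes and moved in opposite directions, are shown for contrast, as neither holds the motif. Cln3 and Lgmn have 2 windows each, of which the one with more E-boxes is printed. Both printed windows lie inside the gene as annotated, which begins at chr7:126585817 for Cln3 and at chr12:102439813 for Lgmn. Their other windows held no E-box.
Lamp1, chr8:13159011-13159170, plus strand: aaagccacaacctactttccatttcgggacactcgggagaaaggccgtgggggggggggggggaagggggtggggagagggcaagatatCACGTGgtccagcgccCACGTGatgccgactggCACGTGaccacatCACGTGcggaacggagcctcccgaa
Cln3, chr7:126583227-126583386, minus strand: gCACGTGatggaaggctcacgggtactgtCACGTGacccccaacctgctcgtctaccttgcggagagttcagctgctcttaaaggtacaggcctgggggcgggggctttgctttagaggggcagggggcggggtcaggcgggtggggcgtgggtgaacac
Mcoln1, chr8:3500369-3500528, plus strand: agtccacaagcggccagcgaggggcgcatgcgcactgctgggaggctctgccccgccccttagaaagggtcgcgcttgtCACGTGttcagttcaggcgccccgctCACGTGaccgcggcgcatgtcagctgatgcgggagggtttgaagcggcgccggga
Gaa, chr11:119267813-119267972, plus strand: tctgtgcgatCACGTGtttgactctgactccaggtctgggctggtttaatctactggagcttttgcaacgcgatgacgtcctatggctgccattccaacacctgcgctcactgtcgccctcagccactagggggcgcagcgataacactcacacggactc
Naglu, chr11:101069944-101070103, plus strand: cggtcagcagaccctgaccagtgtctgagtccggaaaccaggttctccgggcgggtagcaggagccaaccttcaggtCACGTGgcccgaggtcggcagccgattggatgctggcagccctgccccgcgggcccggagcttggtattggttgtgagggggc
Lgmn, chr12:102439083-102439242, minus strand: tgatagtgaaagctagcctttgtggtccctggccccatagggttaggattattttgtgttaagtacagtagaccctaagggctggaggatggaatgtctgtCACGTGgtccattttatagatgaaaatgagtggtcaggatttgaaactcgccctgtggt
Tpp1, chr7:105752226-105752385, minus strand: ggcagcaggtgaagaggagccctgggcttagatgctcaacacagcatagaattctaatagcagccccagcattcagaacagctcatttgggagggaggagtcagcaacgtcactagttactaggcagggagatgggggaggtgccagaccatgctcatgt
Gm2a, chr11:55097835-55097994, plus strand: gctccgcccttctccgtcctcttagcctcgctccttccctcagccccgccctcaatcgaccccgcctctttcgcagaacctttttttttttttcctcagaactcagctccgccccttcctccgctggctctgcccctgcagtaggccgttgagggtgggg
Counted from the start site to the first base of the motif, Lamp1 held 4 E-boxes, at -61, -45, -28 and -15. Mcoln1 held 2 at -71 and -45. Cln3 held 2 at -149 and -121. The 12 members carried 18 E-boxes in all, of which the most distant lay at -227 (Gla) and the nearest spanned the start site (Atp6v0d1). A match to these letters is a description of the sequence and was not tested for binding. Because the motif is known from promoters of lysosomal genes, its higher share among the members is no finding of these data.

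**Figure D1:**
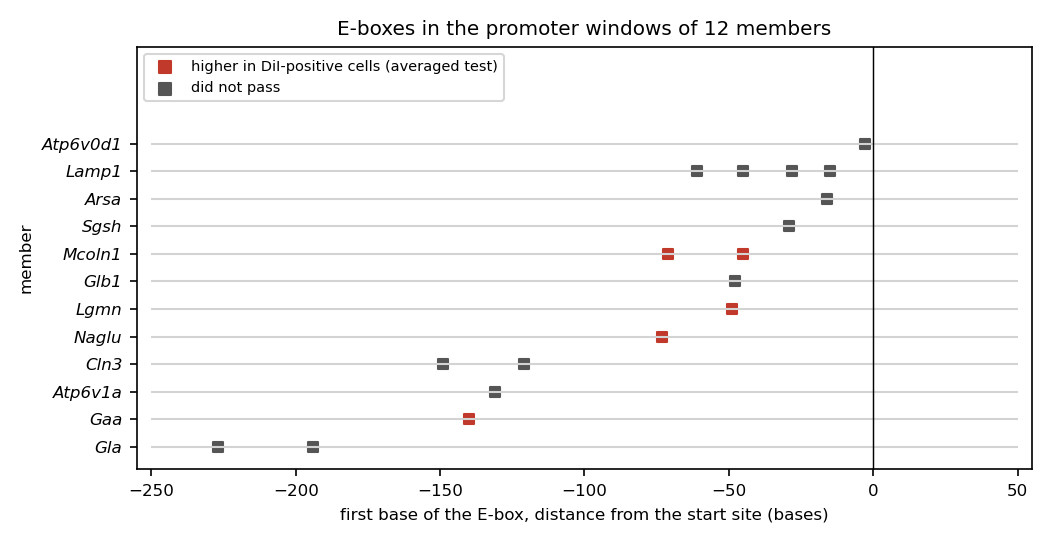
Position of each E-box (CACGTG) in the promoter windows of the 12 members that hold one, as the distance in bases of its first base from the start site. Each grey line is a window, red squares are members that were higher in DiI-positive cells in the test averaged over both liposomes (Gaa, Naglu, Lgmn and Mcoln1), and dark squares are members that did not pass. Lamp1 has the most, with 4.

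Values are the deposited log2 values, on which a difference of 1 is a factor of 2 for well expressed genes and is understated for low ones. Read totals cannot be taken from such values. An index of relative depth was taken from the 1009 genes of the lowest values, on the assumption that each had a single count in 1 library. This index ran from 0.728 to 1.14 in the DiI-positive and from 1.006 to 1.204 in the DiI-negative libraries. The genes of the sort itself (Itgax, H2-Ab1, H2-Aa, H2-Eb1 and Cd74) were high in every library. Their mean values lay between 16.44 and 16.72 in the DiI-positive and between 16.71 and 16.97 in the DiI-negative libraries. Markers of other cells were present too. The 14 Kupffer cell markers, of liver macrophages, averaged 9.72 to 11.87 and 11.18 to 12.23 in DiI-positive cells after empty and curcumin liposomes, and 8.32 to 8.67 and 8.45 to 9.10 in DiI-negative cells. Curcumin DiI-positive replicate 3 stood apart in the 9 markers of sinusoidal endothelial cells, at a mean of 9.88 against 6.48 to 7.76 in the other 11 libraries. Both replicates 3 after curcumin liposomes were also high in the 8 markers of type 1 conventional dendritic cells (11.06 and 11.42, against 9.75 to 10.55 elsewhere). In sorted pools, more cells of a type and more RNA per cell cannot be told apart.

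Lysosomal genes were abundant in all 4 groups. The median of the 47 member means was 11.34 over the 12 libraries, against 8.83 over all genes tested. Set per kilobase of exon, so that genes of different length can be compared, the medians were 9.38 and 6.89, and 42 of the 47 members lay above the median of all genes. On that scale Psap, the precursor of the saposins that help to degrade sphingolipids, was the highest at 14.18. It was followed by Cd68, a mucin-like glycoprotein of macrophage lysosomes, at 13.63, and Laptm5, a lysosomal membrane protein of blood cells, at 13.40. Gm2a, the activator that presents GM2 ganglioside to its hydrolase, stood at 12.62 and the V-ATPase accessory subunit Atp6ap1 at 12.52. The lowest were the proton-channel ring subunit Atp6v0c at 5.50, the galactosylceramidase Galc at 4.80 and the V-ATPase subunit Atp6v0d2 at 4.64. The sulfatases formed a narrow group, from 6.96 (Arsb) to 7.998 (Arsa), while the lipid-handling proteins ran from Galc to Psap. Atp6v0d1 and Atp6v0d2 encode alternative forms of the same subunit, and per kilobase they stood at 9.39 and 4.64. Pseudogenes of Atp6v0c and Cd63 are listed among the genes (means of 6.47 and 5.63), and how reads were shared with them is not given in the sources used here.

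**Figure D2:**
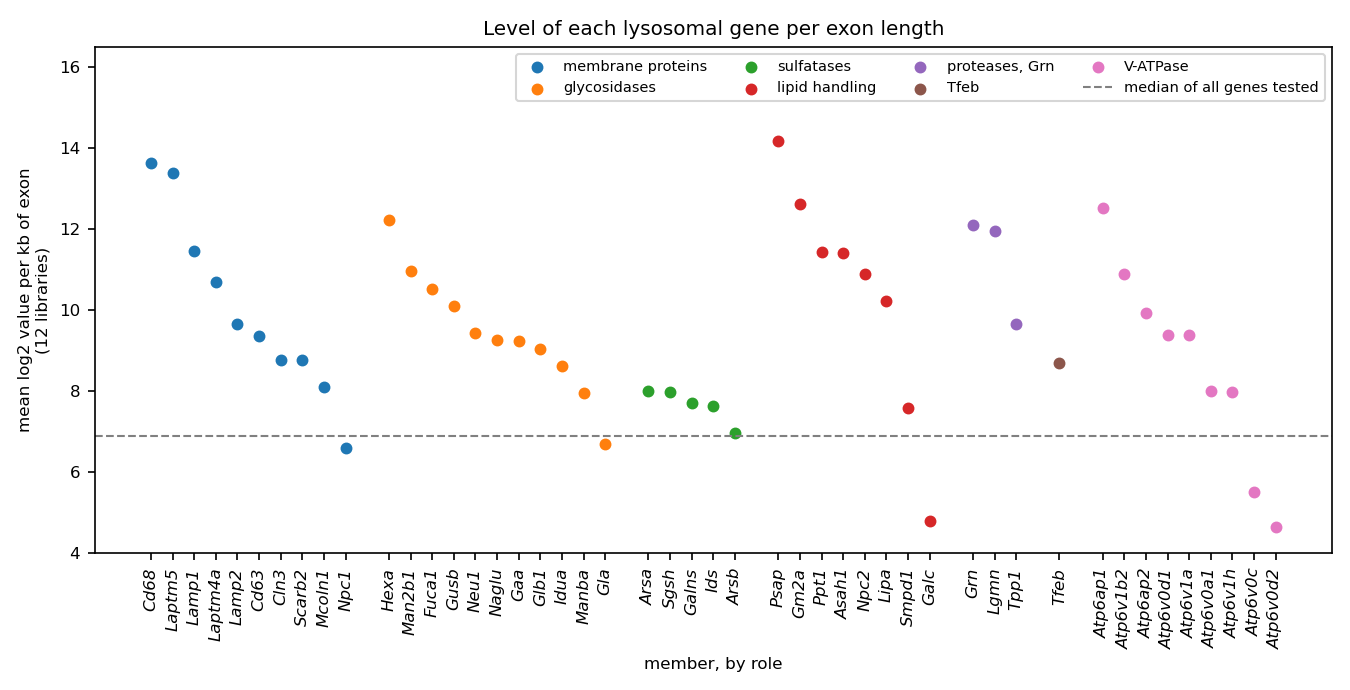
Mean log2 value per kilobase of exon over the 12 libraries (vertical axis) for each of the 47 members, ordered within their role (horizontal axis, colours). The dashed line is the median of the 14227 genes tested, 6.89; 42 of the 47 members lie above it, Psap is the highest and Atp6v0d2 the lowest.

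The first question is how cells that held liposome label differ from cells of the same sort that did not. Averaged over both liposomes, 13 of the 47 members (27.7%) passed the threshold, an adjusted p under 0.05 by limma with Benjamini-Hochberg adjustment over all 14227 genes, against 12.1% of all genes. Of these, 10 were higher in DiI-positive cells (21.3%, against 5.54% of all genes) and 3 were lower (6.38%, against 6.56%). The risers were Lgmn, Cd63, Tpp1, Lipa, Naglu, Atp6v0a1, Npc1, Gaa, Idua and Mcoln1, and the 3 that fell were Arsb, Gm2a and Laptm5. The changes were small, from 0.40 to 0.98 for the risers and from -0.83 to -0.31 for those that fell, on the log2 scale. The median over the 47 members was 0.12, against 0.01 over all genes tested, and it was 0.08 without empty DiI-positive replicate 3 and 0.07 without replicate 3 of both curcumin groups. A positive value was found in 34 of 47 members (72.3%), against 51.1% of all genes. In 6 of the 47 members every one of the 6 DiI-positive libraries lay on the same side of all 6 DiI-negative ones (Naglu, Npc1, Tpp1 and Lgmn above, Gm2a and Laptm5 below), which held for 6.04% of all genes. The other 7 that passed overlapped between the gates in at least 1 library.

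**Figure D3:**
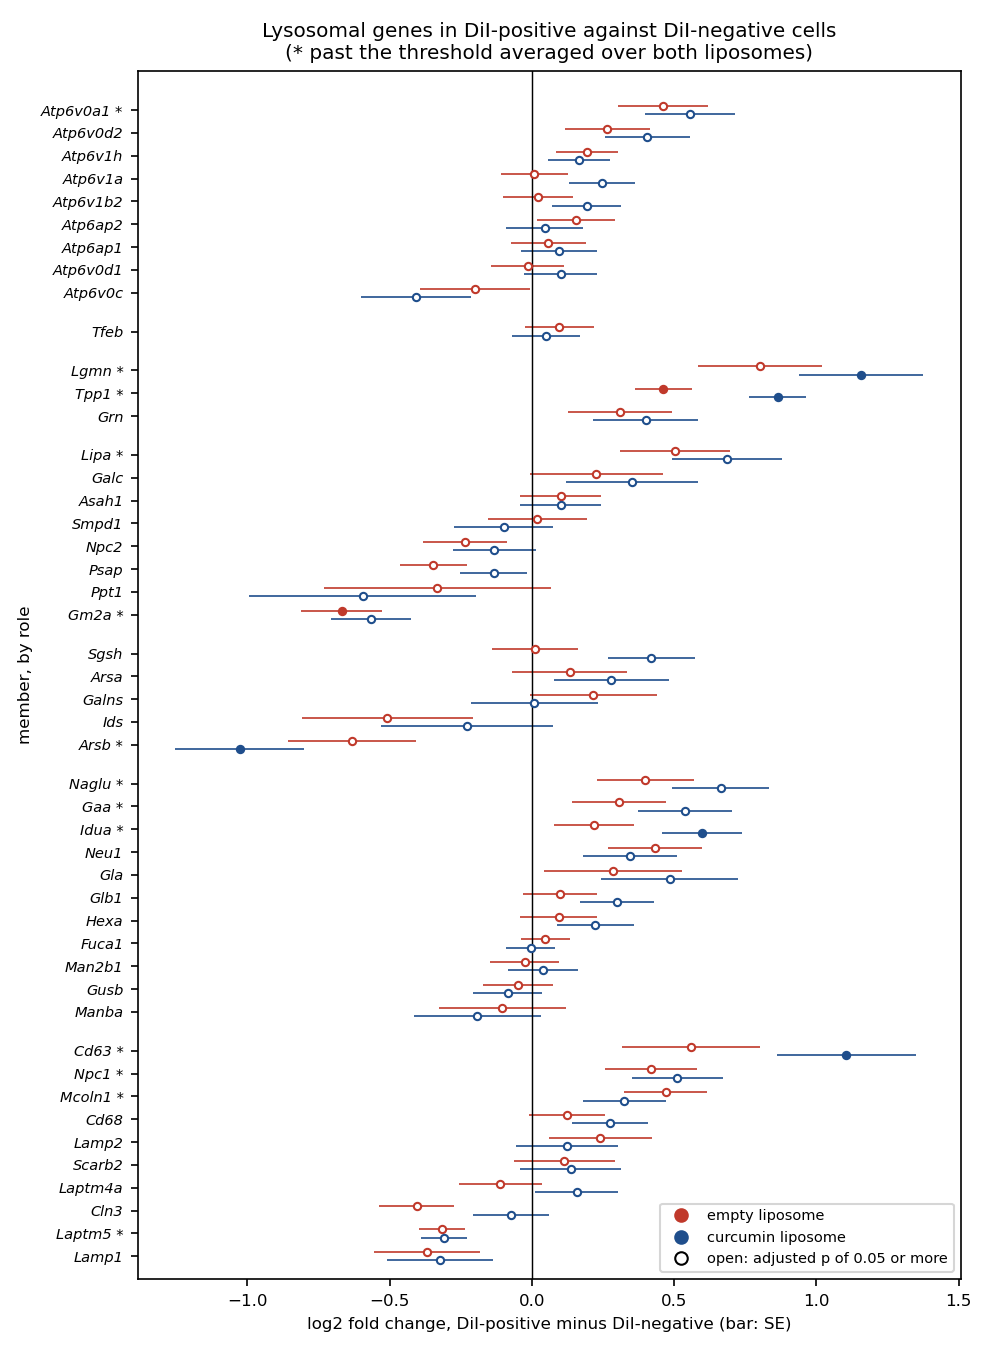
Log2 fold change between DiI-positive and DiI-negative cells (horizontal axis, bars are standard errors) of each member, by role, after empty (red) and curcumin (blue) liposomes. Filled points passed the threshold within that liposome (2 after empty and 5 after curcumin liposomes), and an asterisk marks the 13 members that passed in the average of both.

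Of the 3 members that are proteases or progranulin 2 rose (66.7%, against 12.1% of all genes called in this comparison, the share against which the other roles are read too). Tpp1 (ENSMUSG00000030894, chr7:105744811-105752235) encodes tripeptidyl peptidase, which removes tripeptides from the ends of proteins. For Tpp1, after empty liposomes it stood at 12.37, 12.10 and 12.39 in DiI-positive and at 11.83, 11.81 and 11.83 in DiI-negative cells, and after curcumin liposomes at 12.55, 12.42 and 12.38 and at 11.51, 11.71 and 11.54. All 6 DiI-positive libraries lay above all 6 DiI-negative ones, and the 3 DiI-negative libraries after empty liposomes were close to each other (SD 0.0098). Tpp1 rose by 0.66 ± 0.07 (SE, adjusted p = 0.00032), and it also passed within each liposome, with 0.46 ± 0.10 (SE, adjusted p = 0.035) after empty and 0.86 ± 0.10 (SE, adjusted p = 0.0037) after curcumin liposomes. The call after empty liposomes was lost in 8 of 22 alternatives, among them the one without a filter and those without empty DiI-positive replicate 1 or 3, any one of the 3 empty DiI-negative libraries or curcumin DiI-negative replicate 1, while that after curcumin liposomes held in all 22. Lgmn (ENSMUSG00000021190, chr12:102394084-102439813) encodes legumain, an asparaginyl endopeptidase that activates other lysosomal proteases and cuts antigens. For Lgmn, after empty liposomes it stood at 13.39, 13.34 and 13.95 in DiI-positive and at 12.56, 12.81 and 12.90 in DiI-negative cells, and after curcumin liposomes at 13.61, 13.88 and 13.85 and at 12.54, 13.11 and 12.21. Again no DiI-negative library reached a DiI-positive one, although curcumin DiI-negative replicate 2 came within 0.23 of the lowest. Lgmn rose by 0.98 ± 0.15 (SE, adjusted p = 0.0025), the largest change of the 47, and passed after curcumin liposomes (1.16 ± 0.22 (SE, adjusted p = 0.019)) but not after empty ones (0.80 ± 0.22 (SE, adjusted p = 0.076)). Grn, the precursor of the granulins and a regulator of lysosomal enzymes, was measured at 13.68, 13.65 and 14.42 against 13.49, 13.54 and 13.80 after empty and 14.07, 14.22 and 14.47 against 13.82, 13.84 and 13.89 after curcumin liposomes. The gates overlapped after empty liposomes and were separate after curcumin ones, and Grn did not pass, with 0.36 ± 0.13 (SE, adjusted p = 0.1).

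Among the 10 membrane proteins and channels 3 rose and 1 fell (40.0% called). Cd63 (ENSMUSG00000025351, chr10:128900989-128912822) is a tetraspanin of late endosomes and lysosomes. For Cd63, after empty liposomes it stood at 11.68, 11.08 and 11.72 in DiI-positive and at 10.83, 10.93 and 11.05 in DiI-negative cells, and after curcumin liposomes at 11.98, 11.78 and 11.73 and at 10.72, 11.28 and 10.18. Curcumin DiI-negative replicate 2, at 11.28, lay above empty DiI-positive replicate 2, at 11.08, and the other libraries were ordered by gate. Cd63 rose by 0.83 ± 0.17 (SE, adjusted p = 0.01). Npc1 (ENSMUSG00000024413, chr18:12189692-12236400) moves cholesterol out of the lysosome. For Npc1, after empty liposomes it stood at 10.20, 10.07 and 10.40 in DiI-positive and at 9.67, 9.89 and 9.84 in DiI-negative cells, and after curcumin liposomes at 10.29, 10.82 and 10.21 and at 9.81, 9.98 and 10.01. The gates did not overlap, and the lowest DiI-positive and highest DiI-negative library were 0.06 apart, with curcumin DiI-positive replicate 2 the highest of the 12. Npc1 rose by 0.47 ± 0.11 (SE, adjusted p = 0.022). Mcoln1 (ENSMUSG00000004567, chr8:3500457-3515232), the calcium channel TRPML1 of the lysosomal membrane, stood at 11.37, 11.39 and 11.26 against 10.89, 10.66 and 11.06 after empty and at 10.85, 11.42 and 10.97 against 10.79, 10.73 and 10.74 after curcumin liposomes. The 3 DiI-positive libraries after empty liposomes were separate from their DiI-negative ones, as were those after curcumin liposomes, and the change was 0.40 ± 0.10 (SE, adjusted p = 0.03).

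Laptm5 (ENSMUSG00000028581, chr4:130913125-130936141), which sorts surface receptors of immune cells to the lysosome, fell. Its values were 15.03, 15.03 and 15.21 in DiI-positive and 15.45, 15.43 and 15.34 in DiI-negative cells after empty liposomes, and 15.13, 15.26 and 15.31 and 15.53, 15.59 and 15.51 after curcumin liposomes. The gates did not overlap. The change was -0.31 ± 0.06 (SE, adjusted p = 0.005), small but measured with a standard error among the smallest of the members. The major membrane glycoproteins did not pass. Lamp1 stood at 13.01, 12.55 and 12.87 in DiI-positive against 13.15, 13.30 and 13.08 in DiI-negative cells after empty and at 12.65, 12.33 and 12.78 against 12.99, 13.24 and 12.50 after curcumin liposomes, a difference of -0.35 ± 0.13 (SE, adjusted p = 0.11). Cd68 stood at 14.06, 13.76 and 14.14 against 13.81, 13.92 and 13.87 and at 14.20, 14.01 and 14.19 against 13.85, 14.12 and 13.61, a difference of 0.20 ± 0.09 (SE, adjusted p = 0.2). Cd68 overlapped between the gates after each liposome, and Lamp1 after curcumin but not after empty liposomes. The 2 markers commonly used for lysosomes and macrophages had values of opposite sign, neither past the threshold. Lamp2, Scarb2 (the receptor that carries glucocerebrosidase to the lysosome), Laptm4a and Cln3 (the Batten disease protein) gave 0.18 ± 0.13, 0.13 ± 0.13, 0.02 ± 0.10 and -0.24 ± 0.09, and none passed.

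**Figure D4:**
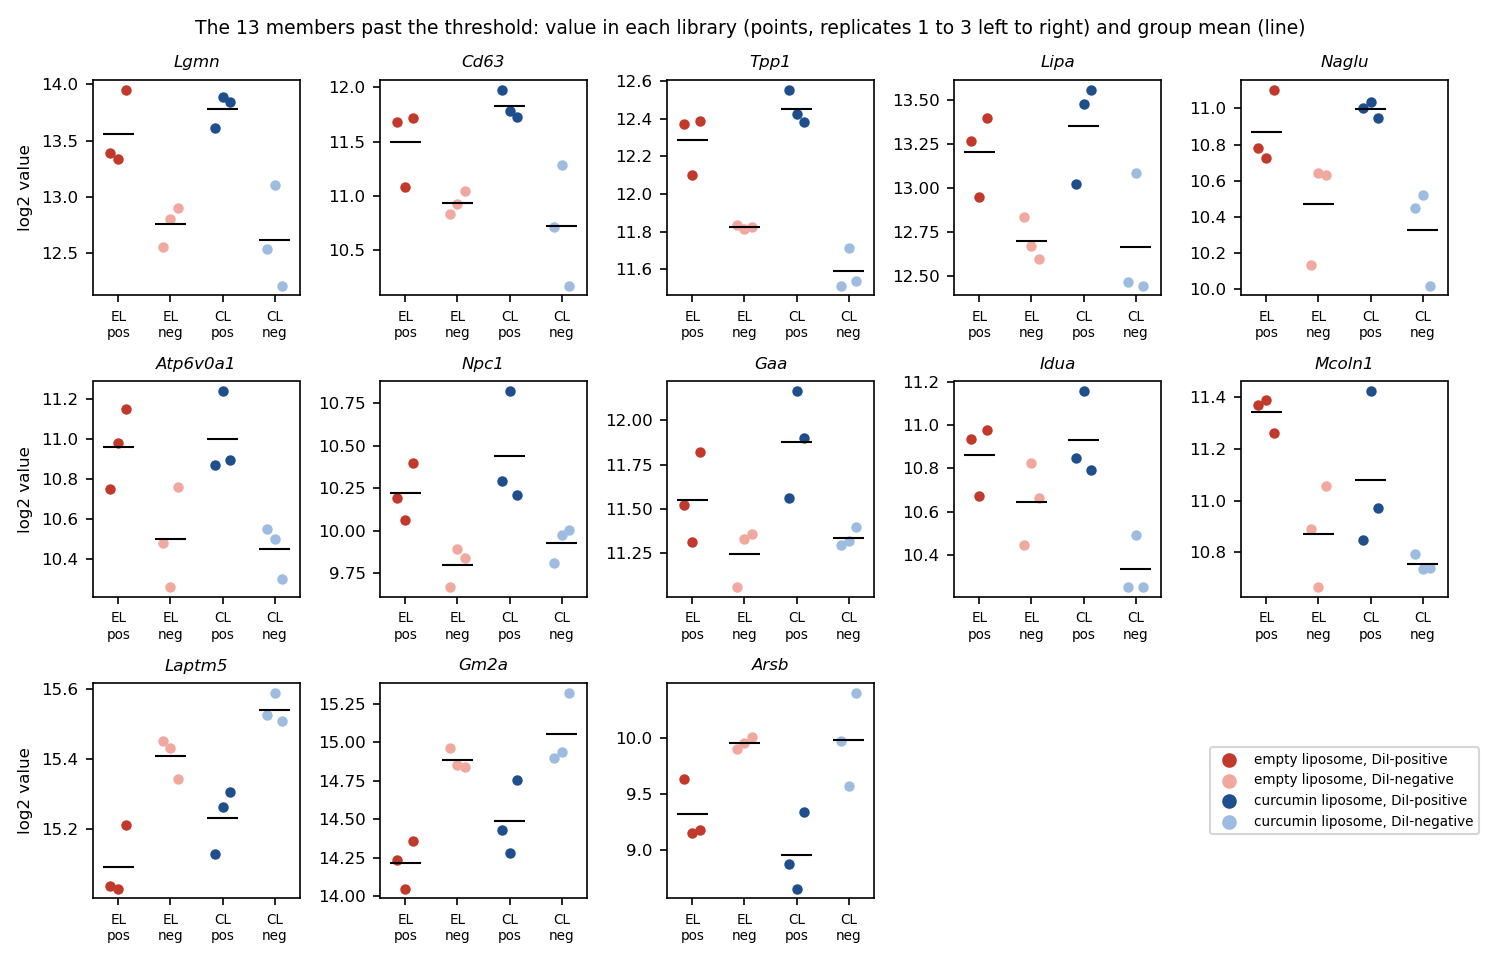
Deposited log2 value (vertical axes, each with its own range) in each library of the 13 members that passed in the average of both liposomes, with groups on the horizontal axis (EL empty, CL curcumin liposome, pos and neg for DiI) and a line at each group mean. Lgmn, Tpp1, Naglu and Npc1 are higher in all 6 DiI-positive libraries than in any DiI-negative one, Gm2a and Laptm5 are lower in all 6, and the other 7 overlap.

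Of the 11 glycosidases 3 rose (27.3%) and none fell. Naglu (ENSMUSG00000001751, chr11:101070012-101077672) and Idua (ENSMUSG00000033540, chr5:108660331-108684557) act in turn on heparan sulfate, and Gaa (ENSMUSG00000025579, chr11:119267887-119285454) breaks down glycogen. For Naglu, after empty liposomes it stood at 10.78, 10.73 and 11.10 in DiI-positive and at 10.14, 10.64 and 10.63 in DiI-negative cells, and after curcumin liposomes at 11.001, 11.03 and 10.95 and at 10.45, 10.52 and 10.02. The gates did not overlap, and empty DiI-negative replicate 1 and curcumin DiI-negative replicate 3 were the lowest. Naglu rose by 0.53 ± 0.12 (SE, adjusted p = 0.016). For Idua, after empty liposomes it stood at 10.94, 10.68 and 10.98 in DiI-positive and at 10.45, 10.82 and 10.66 in DiI-negative cells, and after curcumin liposomes at 10.85, 11.16 and 10.79 and at 10.25, 10.49 and 10.25. The gates were separate after curcumin liposomes and overlapped after empty ones, where DiI-negative replicate 2 stood above DiI-positive replicate 2. Idua rose by 0.41 ± 0.10 (SE, adjusted p = 0.023). Between the gates after curcumin liposomes, in the same fit of all 12 libraries, it rose by 0.60 ± 0.14 (SE, adjusted p = 0.046). Idua kept that call in 6 of 22 alternatives and lost it with only the libraries compared. Gaa, at 11.52, 11.31 and 11.82 against 11.06, 11.33 and 11.36 after empty and 11.56, 12.16 and 11.90 against 11.29, 11.32 and 11.40 after curcumin liposomes, rose by 0.42 ± 0.12 (SE, adjusted p = 0.037). Its DiI-positive replicate 2 after empty liposomes lay within the DiI-negative range. Neu1, the lysosomal sialidase, was just outside the threshold at 0.39 ± 0.12 (SE, adjusted p = 0.051). The other 7, from Gla at 0.39 ± 0.17 to Manba at -0.15 ± 0.16, did not pass, and Fuca1, the fucosidase, varied least of all members between libraries of a group (pooled SD 0.077), at 0.02 ± 0.06.

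Among the 5 sulfatases 1 fell (20.0%). Arsb (ENSMUSG00000042082, chr13:93771630-93943016) removes sulfate from dermatan and chondroitin sulfate. For Arsb, after empty liposomes it stood at 9.64, 9.15 and 9.18 in DiI-positive and at 9.90, 9.95 and 10.01 in DiI-negative cells, and after curcumin liposomes at 8.87, 8.66 and 9.34 and at 9.98, 9.57 and 10.40. The DiI-positive libraries were the lower ones within each liposome, and across liposomes empty DiI-positive replicate 1, at 9.64, lay above curcumin DiI-negative replicate 2, at 9.57. Arsb fell, with a change of -0.83 ± 0.16 (SE, adjusted p = 0.007). Between the gates after curcumin liposomes, in the same fit of all 12 libraries, the change was -1.03 ± 0.23 (SE, adjusted p = 0.034). Arsb kept that call in 12 of 22 alternatives and lost it with only the libraries compared. Its exons share 1948 bases (32.3% of its exon length) with the antisense gene Gm26527, which changed by -0.80 (adjusted p = 0.0086) and had a mean of 8.64 against 9.55 for Arsb. The counting is not stated to use strand, so reads of these 2 genes may not have been told apart. Arsa, Galns, Sgsh and Ids, which act on sulfatides, keratan sulfate and heparan sulfate, did not pass, at 0.21 ± 0.14, 0.11 ± 0.16, 0.22 ± 0.11 and -0.37 ± 0.21. Overlap on the opposite strand was 21.6% of the exon length for Sgsh and 18.8% for Arsa, and at most 12.8% for other members.

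Of the 8 lipid hydrolases, carriers and cofactors, Lipa rose and Gm2a fell (25.0% called). Lipa (ENSMUSG00000024781, chr19:34492318-34527474) is the acid lipase that frees cholesterol and fatty acids from lipoproteins. For Lipa, after empty liposomes it stood at 13.27, 12.95 and 13.40 in DiI-positive and at 12.84, 12.67 and 12.59 in DiI-negative cells, and after curcumin liposomes at 13.02, 13.48 and 13.56 and at 12.47, 13.09 and 12.45. Curcumin DiI-negative replicate 2, at 13.09, lay above 2 DiI-positive libraries, and all other DiI-negative libraries lay below all DiI-positive ones. Lipa rose by 0.60 ± 0.14 (SE, adjusted p = 0.016). Gm2a (ENSMUSG00000000594, chr11:55098115-55113029) is needed by hexosaminidase to degrade GM2 ganglioside. For Gm2a, after empty liposomes it stood at 14.24, 14.05 and 14.36 in DiI-positive and at 14.96, 14.85 and 14.84 in DiI-negative cells, and after curcumin liposomes at 14.43, 14.28 and 14.75 and at 14.90, 14.94 and 15.32. No DiI-positive library reached the lowest DiI-negative one, with 0.09 between them, and curcumin replicate 3 was the highest of its group in both gates. Gm2a changed by -0.62 ± 0.10 (SE, adjusted p = 0.0029). Between the gates after empty liposomes, in the same fit of all 12 libraries, the change was -0.67 ± 0.14 (SE, adjusted p = 0.032). Gm2a kept that call in 16 of 22 alternatives. The alpha chain of the hexosaminidase it serves, Hexa, did not pass, at 0.16 ± 0.10 (SE, adjusted p = 0.32).

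Psap stood at 15.18, 15.21 and 15.58 against 15.71, 15.61 and 15.69 after empty and at 15.60, 15.68 and 15.85 against 15.75, 16.02 and 15.76 after curcumin liposomes. The gates were separate after empty liposomes and overlapped after curcumin liposomes, and the averaged difference of -0.24 ± 0.08 (SE, adjusted p = 0.087) did not pass. Npc2, which hands cholesterol to Npc1, gave -0.18 ± 0.10 (SE, adjusted p = 0.29), so that of this pair Npc1 passed and Npc2 did not. The difference between the 2 was not tested. The ceramidase Asah1, the sphingomyelinase Smpd1 and Galc gave 0.10 ± 0.10, -0.04 ± 0.12 and 0.29 ± 0.16. Ppt1, the thioesterase that removes palmitate from proteins, varied most between libraries of a group (pooled SD 0.579, against a median of 0.188 over the members and 0.201 over all genes tested). For Ppt1, after empty liposomes it stood at 13.15, 13.07 and 12.88 in DiI-positive and at 13.44, 13.21 and 13.45 in DiI-negative cells, and after curcumin liposomes at 12.43, 12.995 and 14.01 and at 13.69, 12.95 and 14.58. Both replicates 3 after curcumin liposomes were the highest of all 12, and the spread was within groups more than between gates (-0.46 ± 0.28 (SE, adjusted p = 0.33)). These are the libraries in which type 1 conventional dendritic cell markers averaged 11.06 and 11.42, and the 6 plasmacytoid dendritic cell markers 9.86 and 9.98 against 7.47 to 8.70 elsewhere. Their part in the value of Ppt1 was not tested.

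Of the 9 subunits and accessory proteins of the proton pump 8 had a positive value, with a median of 0.11, against 0.12 over the 47 members, and 1 passed (11.1%, against 12.1% of all genes). This was Atp6v0a1 (ENSMUSG00000019302, chr11:101009452-101063719), a form of the membrane subunit through which protons pass. For Atp6v0a1, after empty liposomes it stood at 10.75, 10.98 and 11.15 in DiI-positive and at 10.48, 10.26 and 10.76 in DiI-negative cells, and after curcumin liposomes at 10.87, 11.24 and 10.90 and at 10.55, 10.50 and 10.30. Empty DiI-negative replicate 3, at 10.76, lay just above empty DiI-positive replicate 1, at 10.75, and the other libraries were ordered by gate. Atp6v0a1 rose by 0.51 ± 0.11 (SE, adjusted p = 0.014). Atp6v0d1 stood at 10.04, 10.15 and 10.33 against 10.06, 10.18 and 10.31 after empty and 10.28, 10.44 and 10.26 against 10.18, 10.43 and 10.07 after curcumin liposomes, a difference of 0.04 ± 0.09 (SE, adjusted p = 0.81). Its alternative form Atp6v0d2, known from osteoclasts and macrophages, stood at 6.28, 6.22 and 5.70 against 5.94, 5.64 and 5.81 and at 6.41, 6.38 and 6.502 against 5.97, 5.99 and 6.11. The gates of Atp6v0d2 were separate after curcumin liposomes and overlapped after empty ones, and the averaged difference was 0.34 ± 0.11 (SE, adjusted p = 0.062). The catalytic and regulatory subunits Atp6v1a, Atp6v1b2 and Atp6v1h gave 0.13 ± 0.08, 0.11 ± 0.09 and 0.18 ± 0.08, and Atp6ap1, Atp6ap2 and Atp6v0c gave 0.08 ± 0.09, 0.10 ± 0.10 and -0.30 ± 0.14. None of these 6 passed.

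Tfeb itself passed in no comparison. It stood at 11.27, 11.17 and 11.29 against 11.21, 11.09 and 11.13 after empty and at 11.19, 11.32 and 11.13 against 11.22, 11.38 and 10.90 after curcumin liposomes, a difference of 0.07 ± 0.09 (SE, adjusted p = 0.64), with a 95% confidence interval of -0.11 to 0.26. The mRNA level says nothing of where the protein lies in the cell, by which TFEB is mainly controlled. Among the members with a promoter window, an E-box was present in 4 of the 9 that rose, in none of the 3 that fell and in 8 of the 29 that did not pass. Lamp1, with the most E-boxes, was among the last. The E-boxes of Lgmn, which rose, and of Cln3, which did not pass, lay only in windows inside the annotated gene.

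The comparisons of gates within each liposome share no library with each other, although 1 fit gave both a common spread. After empty liposomes 2 of 47 members (4.26%) passed, against 2.95% of all genes. These were Tpp1, higher (1 member, against 1.32% of all genes), and Gm2a, lower (1 member, against 1.62%). Of 22 alternatives, Tpp1 passed in 14 and Gm2a in 16. After curcumin liposomes 5 members (10.6%) passed, against 3.07% of all genes. These were Lgmn, Cd63, Tpp1 and Idua, higher (4 members, against 1.41%), and Arsb, lower (1 member, against 1.67%). Only Tpp1 passed in all 22 alternatives here, while Lgmn passed in 16, Arsb in 12, Cd63 in 11 and Idua in 6. All but Tpp1 were lost with only the libraries compared and with the depth covariate. The gates did not overlap after empty liposomes in 9 members higher and 7 lower, against 1756 and 2070 of the 14227 genes. After curcumin liposomes they did not overlap in 12 members higher and 3 lower, against 1406 and 1523 genes. The sign was the same after both liposomes in 42 of the 47 members (89.4%), with 30 above and 12 below their DiI-negative level, and in 69.6% of all genes tested. The 5 members of opposite sign, Atp6v0d1, Fuca1, Laptm4a, Man2b1 and Smpd1, all had differences of at most 0.16 in size. Across the 47 members the log2 fold changes after the 2 liposomes correlated with r = 0.897, and across all genes tested with r = 0.715, both given as a description over genes, which are not independent replicates. The median difference was 0.10 after empty and 0.16 after curcumin liposomes. Without empty DiI-positive replicate 3 the first of these was 0.04. The second was 0.08 without curcumin DiI-negative replicate 3 and 0.05 without replicate 3 of both curcumin groups.

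Other features of the libraries moved with the gate. DiI-positive libraries were mostly shallower by the depth index, and with that index as a covariate only Tpp1 (0.75, adjusted p = 0.0041) and Lgmn (0.90, adjusted p = 0.043) of the 13 passed, while 3.10% of all genes did. The other 11 kept their sign, and the median over the 47 members was 0.15 with the covariate. For Lipa the value was 0.63 with and 0.60 without it, for Npc1 0.42 and 0.47, for Gaa 0.39 and 0.42 and for Idua 0.39 and 0.41, with adjusted p with the covariate between 0.096 and 0.21. The values of Arsb (-0.63 and -0.83), Atp6v0a1 (0.40 and 0.51), Naglu (0.46 and 0.53) and Mcoln1 (0.31 and 0.40) were smaller in size with the covariate. For Cd63 the value with the covariate was 0.94 (adjusted p = 0.052), for Gm2a -0.48 (adjusted p = 0.057) and for Laptm5 -0.32 (adjusted p = 0.057). The log2 of the summed level of the 14 Kupffer cell markers was 15.62 to 16.96 and 16.15 to 17.32 in DiI-positive cells after empty and curcumin liposomes, and 14.12 to 14.47 and 14.18 to 14.27 in DiI-negative cells. None of the 14 was listed at 0, and 13 of the 14 rose, Clec4f by 4.52 ± 0.40 (SE, adjusted p = 0.00015) and Vsig4 by 3.32 ± 0.35 (SE, adjusted p = 0.00032). All 10 B cell markers rose (median 1.19), 8 of 10 T and NK cell markers, 6 of 7 monocyte markers and 5 of 8 markers of type 2 conventional dendritic cells fell, and none of these was listed at 0. These counts come from the average over both liposomes without the covariate, in which 12.1% of all genes passed. There, 0 of 6 plasmacytoid dendritic cell and 0 of 6 neutrophil markers tested passed. Of 8 type 1 conventional and 6 mature dendritic cell markers, 1 rose and 1 fell in each list. Of 9 endothelial, 6 hepatocyte and 5 erythrocyte and platelet markers 2, 1 and 1 rose. Of the 5 genes of the sort 1 fell, and none had a positive value. The Kupffer cell markers changed far more (median 2.78) than any lysosomal member. The part of cell makeup in the lysosomal differences was not tested.

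Calls near the threshold depended on single libraries. In the average over both liposomes Lgmn and Tpp1 passed in all 21 alternatives run, and Arsb, Atp6v0a1, Cd63, Gm2a, Laptm5 and Naglu in all but the one with the depth covariate. Lipa also missed the threshold without replicate 3 of both curcumin groups. Npc1 missed it without empty DiI-positive replicate 3, empty DiI-negative replicate 1 or curcumin DiI-negative replicate 1. Idua passed in 14, Mcoln1 in 11 and Gaa in 8 of the 21. Idua was lost without empty DiI-positive replicate 1 or 3, empty DiI-negative replicate 1, curcumin DiI-positive replicate 2, or curcumin DiI-negative replicate 1 or 3. Mcoln1 was lost without a filter, and without empty DiI-positive or DiI-negative replicate 1 or 2, or any one of the 3 curcumin DiI-negative libraries. Gaa was lost without a filter, without replicate 3 of both curcumin groups, and when any library was left out other than empty DiI-positive replicate 2 and curcumin DiI-positive replicate 1. Calls were gained as well. Neu1 passed in 8 of the 21, with adjusted p down to 0.033. Psap passed with quantile normalization (-0.28, adjusted p = 0.0097) and without curcumin or empty DiI-positive replicate 3. Lamp1 passed, lower in DiI-positive cells, without curcumin DiI-negative replicate 3 (-0.45, adjusted p = 0.03) and without replicate 3 of both curcumin groups. Grn passed with quantile normalization (0.40, adjusted p = 0.049) and 1 more setting, and Atp6v0d2 without empty DiI-positive replicate 3 (0.43, adjusted p = 0.01). After empty liposomes no member passed without empty DiI-positive replicate 1 or any one of the 3 empty DiI-negative libraries, and 1 passed without empty DiI-positive replicate 2 or 3 or curcumin DiI-negative replicate 1. After curcumin liposomes 1 member passed without curcumin DiI-positive replicate 2 or curcumin DiI-negative replicate 1 or 3, 2 passed without curcumin DiI-positive replicate 1 or empty DiI-negative replicate 2 or 3, and 3 without empty DiI-negative replicate 1.

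The wider lysosomal and autophagy machinery was read from lists that do not overlap the members, with the average over both liposomes, in which 5.54% of all genes were higher and 6.56% lower, 12.1% in all. Of 33 other hydrolases and cofactors tested 8 rose and 3 fell (33.3%). The phospholipase D family member Pld3 gave 1.10 ± 0.13 (SE, adjusted p = 0.00049), the acid phosphatase Acp5 1.16 ± 0.16 (SE, adjusted p = 0.0011) and the phospholipase B-like Plbd1 -0.98 ± 0.15 (SE, adjusted p = 0.0022). Of 12 cathepsins, the lysosomal proteases that complete this set, 3 rose and 1 fell (33.3%). Ctsb gave 0.77 ± 0.12 (SE, adjusted p = 0.0026) and Ctso 0.73 ± 0.12 (SE, adjusted p = 0.0035), with Ctsd at 0.85 ± 0.16 (SE, adjusted p = 0.0053), named after its value was seen. Ctsw, a cathepsin of T and NK cells, fell with -1.44 ± 0.17 (SE, adjusted p = 0.00047), beside the T and NK cell markers that fell. Of the 13 other V-ATPase subunits and assembly factors tested only the assembly factor Tmem199 rose (0.44 ± 0.10 (SE, adjusted p = 0.013)), which is 7.69% of them, and their median was 0.03. Of 18 genes that sort hydrolases to the lysosome 3 rose and 1 fell (22.2%), Gga2 with 0.85 ± 0.14 (SE, adjusted p = 0.0032), Snx2 with 0.55 ± 0.10 (SE, adjusted p = 0.0041), Gnptg with 0.33 ± 0.09 (SE, adjusted p = 0.029), named after its value was seen, and Snx1 with -0.26 ± 0.06 (SE, adjusted p = 0.019).

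The other 3 lists held calls at about the share of all genes or below it, with 12.5% of the relatives and regulators of TFEB, 7.14% of the genes of lysosome fusion and positioning and 11.1% of the autophagy genes. The genes that passed are named as single genes, not as a result of their list. Of the 24 relatives and regulators of TFEB, Flcn (0.36 ± 0.09 (SE, adjusted p = 0.02)) and Tfec (0.66 ± 0.17 (SE, adjusted p = 0.031)) rose and Tfe3 (-0.24 ± 0.07 (SE, adjusted p = 0.049)) fell. Flcn is folliculin, which acts on the Rag GTPases that hold TFEB at the lysosome, and Tfec and Tfe3 are members of the same factor family. Of 28 genes of lysosome fusion and positioning Plekhm2 rose (0.54 ± 0.15 (SE, adjusted p = 0.043)) and Bloc1s2 fell (-0.34 ± 0.10 (SE, adjusted p = 0.043)). Of 27 autophagy genes Rubcn (0.71 ± 0.11 (SE, adjusted p = 0.0024)), an inhibitor of autophagosome maturation that also acts in LC3-associated phagocytosis, and the cargo receptor Sqstm1 (0.31 ± 0.09 (SE, adjusted p = 0.047)) rose, and Atg7 (-0.37 ± 0.10 (SE, adjusted p = 0.03)) fell. The medians of these 3 lists were 0.03, -0.03 and 0.04. None of the 7 lists had a gene past the threshold in the comparisons of curcumin with empty liposomes.

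The other question of the design is whether curcumin in the liposomes changed gene levels within a gate. No member passed in DiI-positive or in DiI-negative cells, and no gene of the 14227 did in either (0.0% of all genes in both), by limma, with smallest adjusted p of 0.30 and 0.72. In DiI-positive cells 2 to 4 genes, none of them a member, passed when empty replicate 3 (2 genes), curcumin replicate 3 (4 genes) or either other curcumin replicate (3 genes) of that gate was left out. At an unadjusted p under 0.05 there were 2 members (4.26%) in DiI-positive cells, against 8.19% of all genes, and 1 member (2.13%) in DiI-negative cells, against 3.3% of all genes. These counts rested on single libraries: without empty DiI-positive replicate 3 there were 9 members (19.1%) in DiI-positive cells, against 10.2% of all genes, and without curcumin DiI-negative replicate 2 there were 4 (8.51%) in DiI-negative cells, against 3.03%. The 2 in DiI-positive cells were Psap and Atp6v0d2. Psap, at 15.18 to 15.58 after empty and 15.60 to 15.85 after curcumin liposomes in these cells, did not overlap between the liposomes. The same held for 701 genes higher and 724 lower of the 14227, and for 3 members higher and 0 lower. In DiI-negative cells it held for 815 genes higher and 782 lower, and for 7 members higher and 2 lower. For Psap in DiI-positive cells the difference was 0.39 ± 0.12 (SE, adjusted p = 0.46), with a 95% confidence interval of 0.13 to 0.65. Atp6v0d2, at 5.70 to 6.28 after empty and 6.38 to 6.502 after curcumin liposomes, differed by 0.36 ± 0.15 (SE, adjusted p = 0.57), with an interval of 0.04 to 0.69. The 1 in DiI-negative cells was Tpp1, at 11.83, 11.81 and 11.83 after empty and 11.51, 11.71 and 11.54 after curcumin liposomes, a difference of -0.24 ± 0.10 (SE, adjusted p = 1). The next by p there was Idua, with -0.31 ± 0.14 (SE, adjusted p = 1).

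In DiI-positive cells 39 of the 47 members (83.0%) had a positive value after curcumin, against 50.1% of all genes, with a median of 0.14. This count was 33, with a median of 0.07, without empty DiI-positive replicate 2, and 33, with a median of 0.11, without curcumin DiI-positive replicate 3. Without empty DiI-positive replicate 3 it was 39 again, with a median of 0.22, so it is given as a description. All 11 glycosidases were among the 39, from 0.02 (Neu1) to 0.32 (Gaa), while Mcoln1 and Arsb were among the 8 with negative values. In DiI-negative cells 27 members (57.5%) were positive, against 50.03% of all genes, with a median of 0.04. Without curcumin DiI-negative replicate 2 there were 20, and the median turned to -0.06, and without curcumin DiI-negative replicate 3 there were 37, with a median of 0.09. What size of change these data leave possible differed between members. For Fuca1 in DiI-positive cells the interval was -0.07 to 0.31, for Tfeb -0.29 to 0.24, for Lamp1 -0.63 to 0.19, for Cd68 -0.15 to 0.44, for Grn -0.07 to 0.74 and for Ppt1 -0.76 to 0.98. A p that missed the threshold therefore does not show that the liposomes gave equal levels.

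**Figure D5:**
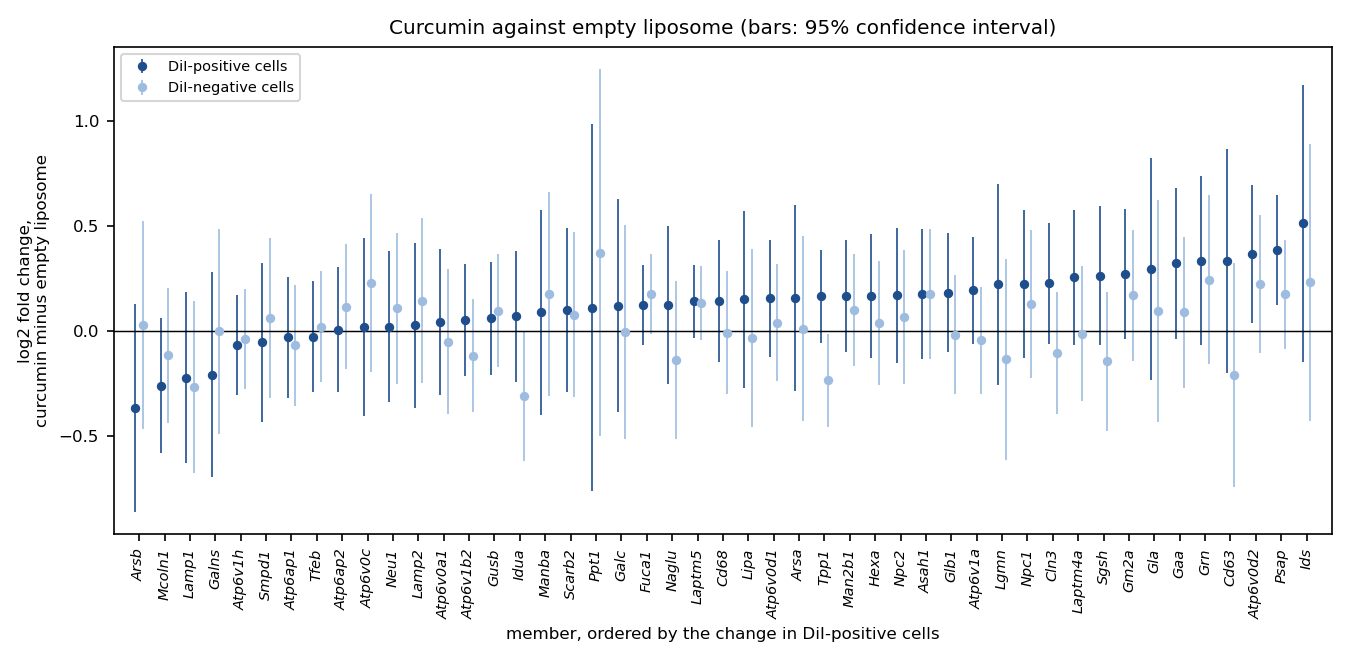
Log2 fold change between curcumin and empty liposomes (vertical axis, bars are 95% confidence intervals) for each of the 47 members (horizontal axis), in DiI-positive (dark) and DiI-negative (light) cells. No member passed the threshold in either gate; 39 and 27 members have positive values, and the widest intervals belong to Ppt1.

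The difference between the gates was compared between the liposomes by an interaction term. No member and no other gene passed (0.0% of all genes, by limma), with the smallest adjusted p at 0.999. At an unadjusted p under 0.05 there was 1 member (2.13%), against 3.7% of all genes. Without empty DiI-positive replicate 3 there were 4 (8.51%, against 5.19%), without curcumin DiI-negative replicate 2 there were 3 (6.38%, against 3.77%), and 2 (4.26%) without empty DiI-negative replicate 1 (against 3.46%) or curcumin DiI-positive replicate 2 (against 4.88%). The 1 with all libraries was Tpp1, whose gate difference was larger after curcumin than after empty liposomes by 0.40 ± 0.14, with an interval of 0.09 to 0.71. The next was Sgsh, the heparan N-sulfatase, with 0.41 ± 0.22 and an interval of -0.06 to 0.88. Sgsh stood at 10.07, 9.90 and 10.31 against 10.01, 10.06 and 10.17 after empty and 10.69, 10.14 and 10.24 against 9.95, 9.88 and 9.98 after curcumin liposomes, and curcumin DiI-positive replicate 1 was the highest of the 12. The 4 members that passed after curcumin and not after empty liposomes (Lgmn, Cd63, Idua and Arsb) had interaction values of 0.36 ± 0.31, 0.55 ± 0.34, 0.38 ± 0.20 and -0.39 ± 0.32, so a difference between the liposomes was not shown for them.

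Single libraries differed in how many members they held at an extreme. Curcumin DiI-negative replicate 3 had the lowest value of the 12 for 16 of the 47 members, Lamp2, Cd63, Cd68, Hexa, Lipa and Tfeb among them, and for 7.23% of all genes. Empty DiI-positive replicate 2, the shallowest library by the depth index, held the lowest value for 9 members (against 11.23% of all genes) and the highest for 0 (against 13.57%). Curcumin DiI-positive replicates 3 and 2 held the highest for 11 and 10 members, and for 7.2% and 11.45% of all genes. The median deviation of the members from their own mean over the 12 libraries ran from -0.16 in curcumin DiI-negative replicate 3 to 0.17 in empty DiI-positive replicate 3, while over all genes tested it lay between -0.02 and 0.00. These deviations are as large in size as the median difference between the gates, 0.12.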

How the data were processed

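Cells sorted as CD11c+ MHC class II+ and DiI-positive or DiI-negative were sequenced after low-input cDNA amplification, per the labels' protocols. The 24 sample records share 12 library codes, 2 to a code, and each code was counted as 1 library, which gave 4 groups of 3. The authors deposited 1 log2 value per gene and library, between -3.62 and 19.4. The submitters' processing notes name the GRCm38 build, STAR 2.4.0d and DESeq2 1.8.1. For the read counter, the annotation, the strand setting and the transform nothing is given in the sources used here. Low genes vary little between libraries, as on a shrunken (regularized) log2 scale, so a count test could not be used, changes of low genes are understated, and precision is given only as the spread between libraries.

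The 14227 genes whose mean log2 value reached 4 (of the 24874 not at 0 throughout) entered 1 limma 3.58.1 fit in R 4.3.3 with a mean per group (eBayes with trend, 8 residual and 3.51 prior degrees of freedom). Adjusted p-values are Benjamini-Hochberg over all genes tested, with 0.05 as the threshold. The fit was tested on simulated data. Symbols, coordinates and exon lengths came from GENCODE M21 (GRCm38), and lengths are those of all annotated exons merged. Promoter windows are those of RefSeq, GRCm38.p6. Npc1, Asah1, Galns, Atp6v0d2, Atp6v1b2 and Atp6v1h had no window.

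The members and all lists were chosen with earlier results of these data known, so no test over a list was made. Values in each library are given for Lamp1, Cd68, Grn, Tfeb, Atp6v0d1 and Atp6v0d2, the 10 members with the smallest p averaged over both liposomes, the 2 with the smallest p in each curcumin comparison and in the interaction, and the largest change of each role. Gaa, Mcoln1 and Ppt1 were added after their values were seen. Of each pathway list, up to 3 genes with the smallest p are named. Alternatives changed the filter, prior, scaling, weights, samples, depth covariate and pairing, or left out a library.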

Additional observations from a re-analysis of the deposited data

How the results depend on the processing

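Averaged over both liposomes, 13 members passed, and 9 to 16 did under the alternatives other than the depth covariate, which gave 2. Among all genes the shares there were 12.1%, 3.10% with the depth covariate and 5.01% without a filter. After empty liposomes 2 members passed, against 5 with quantile normalization, 5 with library weights, 1 with the depth covariate, 4 without replicate 3 of both curcumin groups and 0 to 3 when 1 library was left out. After curcumin liposomes 5 passed, against 3 without a filter, 1 with only the libraries compared, 1 with the depth covariate and 1 to 7 when 1 library was left out. Leaving out 1 library gave 9 to 14 in the average. The share of all genes called after empty liposomes, 2.95%, was 1.06% without a filter, 4.88% with a filter at 7, 1.25% with the depth covariate and 5.55% with library weights. After curcumin liposomes it was 3.07%, and 0.997%, 5.70%, 0.401% and 2.4% under the same settings, and 0.281% with only the libraries compared. Leaving out 1 library gave 0.597% (empty DiI-negative replicate 1) to 4.63% (curcumin DiI-positive replicate 3) after empty and 0.801% (curcumin DiI-negative replicate 1) to 7.65% (curcumin DiI-positive replicate 3) after curcumin liposomes. No member passed in the curcumin comparisons or the interaction under any alternative run. Atp6v0d1, which did not pass, turned from 0.04 to -0.04 (adjusted p = 0.894) with the depth covariate, and the cause was not tested.

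Same-numbered libraries of the 2 gates correlated in their deviations from the group means with r of 0.079, 0.004 and 0.076 after empty liposomes. After curcumin liposomes r was 0.066, 0.035 and 0.328, the last for both replicates 3. Differently numbered libraries of the 2 gates gave -0.083 to 0.003 after empty and -0.245 to 0.197 after curcumin liposomes. Whether libraries of the same number come from the same mice is not given in the labels. With each same-numbered pair of gates within a liposome as a block, 14 members passed in the average, 1 after empty and 5 after curcumin liposomes. Under the block Mcoln1 did not pass and Grn and Neu1 did in the average, and Tpp1 did not pass after empty liposomes nor Idua after curcumin liposomes, where Gm2a did. Library depth is known only as an index, and 3 libraries a group limit what can pass, most of all for Ppt1, Ids and Cd63, whose spread was the largest (pooled SD 0.579, 0.425 and 0.340).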
